A study of Mus musculus with 42 samples.

Results

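The genes described here are 46 genes of DNA replication and of the passage from G1 into S phase of the cell cycle, measured in mouse lung mesenchymal cells. They were chosen by name from a list of replication and G1/S genes, with earlier results of these data known. All 46 were found by symbol in both deposited RNA tables, among 26323 named genes in the CD1 table and 35972 in the C57BL/6 table, and all 46 passed the minimum level for testing in each table. Of the 42 samples, 21 were RNA-seq libraries, which count messenger RNA per gene, and 21 were ATAC-seq libraries, in which a transposase marks accessible DNA. In the CD1 mice, cells positive for a Col1a1-GFP reporter and negative for CD45, EpCAM and CD31 (leukocyte, epithelial and endothelial surface markers) were isolated from lung tissue after a digestion of 45 min. The sham group is these cells straight after the sort. Culture lasted 5 days, in 10% serum, on collagen-coated PDMS, a silicone, with a stiffness of either 0.2 kPa (soft) or 32 kPa (stiff). Each of these groups has 3 libraries per assay. In the C57BL/6 mice, the sort took cells of the Col1a2 lineage trace that lacked CD45 and EpCAM. These mice had sham treatment or had received bleomycin, which causes lung injury and then fibrosis, 14 or 56 days earlier, and each group has 4 libraries per assay. The reporter and the lineage trace limit both sorts to cells that use, or once used, a collagen I gene. The labels give no age, and do not tie replicates to different animals or cultures. The p-values therefore measure only how far these samples spread, and that spread may be technical. In C57BL/6 sham and day 14, reads of the sex-marking genes Xist and Ddx3y differed between libraries, so each of these groups holds different animals.

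Before a cell copies its DNA, the origin recognition complex with Cdc6 and Cdt1 loads the ring-shaped MCM2-7 helicase onto origins, a step called licensing, and Cdc45 and the GINS complex later switch the helicase on. Primase and DNA polymerases then make new strands, held by the sliding clamp Pcna that the RFC complex loads, while Fen1 and Lig1 process and join lagging-strand fragments and enzymes such as ribonucleotide reductase supply deoxynucleotides. Many of these genes are known targets of E2F transcription factors, which retinoblastoma-family pocket proteins hold in check in resting cells. Most fibroblasts of a healthy adult lung are resting.

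Because the genes are known as E2F targets, promoters were searched for 4 E2F words, TTTCCCGC, TTTGGCGC, TTTCGCGC and TTTGCCGC, and for the CCAAT box, each on both strands. The search used RefSeq windows of build GRCm38.p6 from 250 bases before to 50 bases after a start. The table held such windows for 39 of the 46 genes. Mcm4, Gins1, Gins2, Prim2, Pole, Rfc2 and Ccne2 had none. An E2F word lay in a window of 15 of the 39 genes, or 38.5%, against 4.01% of the 13464 genes that were tested in the CD1 table and had a window. CCAAT lay in windows of 24 of the 39, or 61.5%, against 41.9%. The cell cycle homology word TTTGAA, by contrast, lay in 15.4% of the 39 against 15% of the tested genes. The same 3 words were found in 5.88%, 82.4% and 70.6% of 17 mitosis genes with a window. The 160 bases before the start are shown for 6 genes that differ in the number and place of E2F words, and for Rfc1 and E2f2, chosen after their values were seen because their RNA was not called higher in culture. Capitals mark E2F words and CCAAT boxes, which can overlap. Starts are those of the windows, and those of Orc1, Cdc6, Mcm5 and Rfc1 lie inside the RefSeq span of the gene. For Rfc1, on the minus strand, that span begins at 65338617. Distances and absent words hold for the window starts only.
Orc1, chr4:108579294-108579453, plus strand: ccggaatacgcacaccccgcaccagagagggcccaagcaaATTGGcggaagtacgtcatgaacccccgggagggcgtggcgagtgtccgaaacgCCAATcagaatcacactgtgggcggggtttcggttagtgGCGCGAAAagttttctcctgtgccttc
Cdc6, chr11:98907991-98908150, plus strand: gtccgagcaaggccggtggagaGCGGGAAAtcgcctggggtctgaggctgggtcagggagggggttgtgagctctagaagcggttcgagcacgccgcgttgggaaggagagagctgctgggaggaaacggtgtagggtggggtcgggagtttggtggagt
Mcm5, chr8:75109349-75109508, plus strand: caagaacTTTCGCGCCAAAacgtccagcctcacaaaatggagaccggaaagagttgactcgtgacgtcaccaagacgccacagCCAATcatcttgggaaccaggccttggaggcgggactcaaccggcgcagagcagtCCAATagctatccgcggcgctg
Mcm6, chr1:128359706-128359865, minus strand: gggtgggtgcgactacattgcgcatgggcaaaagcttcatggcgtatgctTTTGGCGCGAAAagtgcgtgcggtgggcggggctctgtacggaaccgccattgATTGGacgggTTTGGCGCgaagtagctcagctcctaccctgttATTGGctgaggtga
Gins3, chr8:95633399-95633558, plus strand: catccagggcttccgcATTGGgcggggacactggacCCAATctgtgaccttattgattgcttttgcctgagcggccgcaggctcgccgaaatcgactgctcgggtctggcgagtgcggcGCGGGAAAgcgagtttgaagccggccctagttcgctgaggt
Rfc3, chr5:151651209-151651368, minus strand: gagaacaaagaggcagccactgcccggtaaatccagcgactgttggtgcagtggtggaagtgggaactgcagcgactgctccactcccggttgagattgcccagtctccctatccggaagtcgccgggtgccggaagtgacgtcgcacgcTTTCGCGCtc
Rfc1, chr5:65335640-65335799, minus strand: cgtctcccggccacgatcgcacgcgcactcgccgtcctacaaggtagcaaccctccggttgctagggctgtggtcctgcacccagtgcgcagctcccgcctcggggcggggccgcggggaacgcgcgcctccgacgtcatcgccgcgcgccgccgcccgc
E2f2, chr4:136172114-136172273, plus strand: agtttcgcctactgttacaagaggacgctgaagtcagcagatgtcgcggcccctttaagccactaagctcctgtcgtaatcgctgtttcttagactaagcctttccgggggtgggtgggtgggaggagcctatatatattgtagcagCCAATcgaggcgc
The Mcm6 stretch, before the gene for an MCM2-7 subunit, held 3 E2F words between 110 and 47 bases before the start. In the stretch of Orc1, the largest subunit of the origin recognition complex, there was 1 E2F word, 27 bases before the start. In the Rfc1 and E2f2 stretches no E2F word was found, although the same E2f2 window held 1 beyond the printed stretch, after the start. Over all 39 genes, the median log2 change on 0.2 kPa was 2.61 for the 15 with an E2F word and 2.81 for the 24 without, and at day 14 it was 0.92 and 1.04, as a description with no test. For the same words without their first T, the order on 0.2 kPa turned round, with 2.87 for the 26 genes with a word and 2.34 for the 13 without. At day 14 these medians were 0.92 and 1.06. The words are matches of letters, with no measurement of binding.

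Depth was 35858180 to 69524944 recovered reads for the CD1 RNA libraries and 14288605 to 51288435 for those of C57BL/6. Some libraries stood apart. C57BL/6 sham replicates 1 and 2 and day 56 replicates 2 and 3 had 16913, 17561, 16679 and 16563 genes detected, against 19384 to 21381 in the other 8 C57BL/6 libraries. On 32 kPa, replicates 1 and 2 had 16394 and 16311 genes detected and replicate 3 had 17872. The sorted type was visible in the RNA: Col1a1 lay at 5549 to 8935 CPM (reads per 1000000 reads of the library) in CD1 sham and 1961 to 3388 CPM in C57BL/6 sham, while Epcam stayed at or under 1.39 CPM in every library. Epithelial markers as a list still summed to 141.2 to 376.5 CPM in CD1 sham and 135.6 to 339.6 in C57BL/6 sham. Endothelial markers summed to 267.3 to 286.5 and 187.5 to 285.3 CPM in these groups. The sum of 20 leukocyte markers was 107.6 to 210.1 CPM in fresh CD1 cells, 17.2 to 24.6 on 0.2 kPa, 13.7 to 14.5 on 32 kPa, 254.1 to 398.3 in C57BL/6 sham, 613.7 to 2297 at day 14 and 202.2 to 693.3 at day 56.

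After 5 days in culture nearly the whole replication set was higher. On 0.2 kPa gels 44 of the 46 genes rose against fresh CD1 sham cells and none fell, where 31.9% of the 18480 tested genes rose and 39.2% fell (limma, adjusted p under 0.05). The median change of the 46 genes was 2.87 on the log2 scale, on which 1 is a doubling, against -0.22 for all tested genes. In 45 of the 46, every 0.2 kPa library lay above every sham library, a count that was not made for all tested genes. On 32 kPa 44 genes rose and none fell, against 32.4% and 41% of all tested genes, with a median change of 2.70. Summed over the 46 genes, the level was 478.8 to 503.2 CPM in the sham libraries, 3606 to 3819 on 0.2 kPa and 3162 to 3752 on 32 kPa. In bulk RNA, a larger share of cells that use a gene and more RNA of it per cell cannot be told apart. Leukocyte, epithelial, endothelial and red cell markers moved the other way in culture (17 of 20, 12 of 12, 9 of 10 and 4 of 4 tested markers lower on 0.2 kPa), as did 8 of 9 mesenchymal markers, and their part in the result was not tested.

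**Figure D1:**
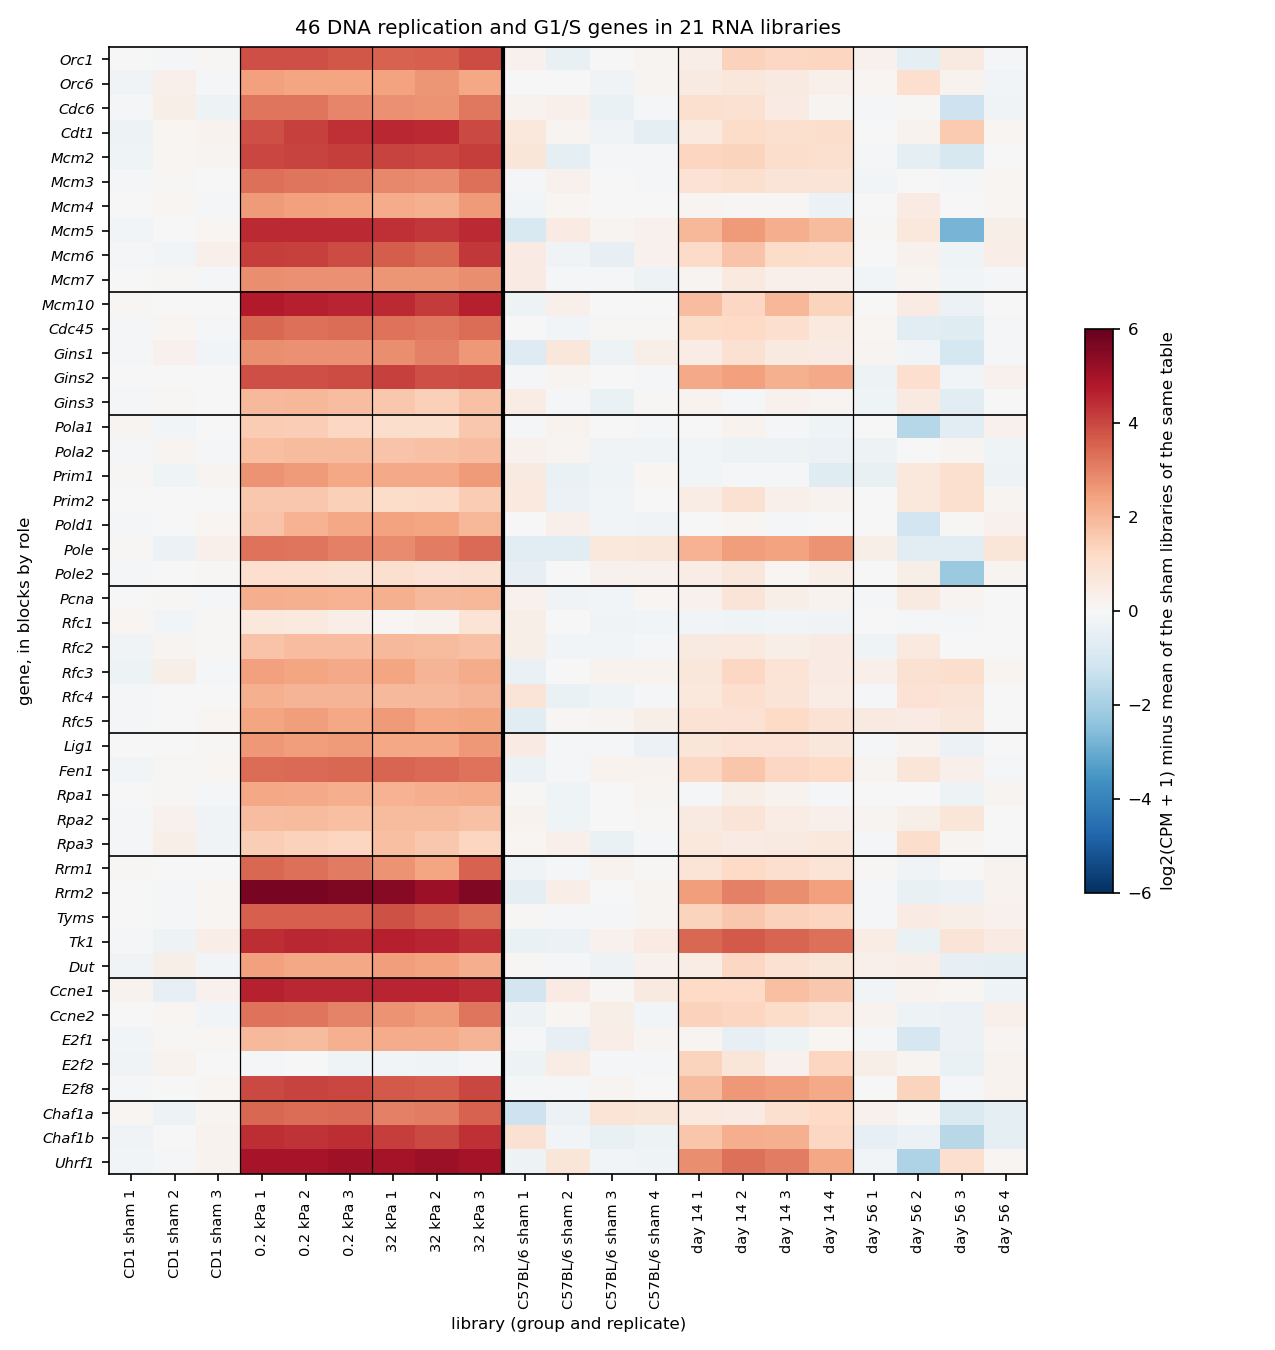
Heat map of the 46 genes (rows, in blocks by role) in the 21 RNA libraries (columns), coloured by log2(CPM + 1) minus the mean of the sham libraries of the same table. Both culture groups are red in nearly all rows, day 14 is paler and uneven, and day 56 is near sham, with single squares apart such as Mcm5 at 0 reads in replicate 3.

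All 10 licensing genes rose on 0.2 kPa, with a median log2 change of 3.61. Orc1 changed most. Its level was 0.600, 0.517 and 0.671 CPM in the sham libraries, 22.1, 22.2 and 20.4 on 0.2 kPa and 17.4, 17.9 and 23.0 on 32 kPa. No culture library came near a sham library, and the log2 change on 0.2 kPa was 4.94 ± 0.17 (SE, n = 3 per group, adjusted p = 1.21e-09, limma). Orc6, the smallest subunit of the same complex, changed least of the 10, from 9.72, 14.1 and 10.5 CPM in sham to 66.3, 61.7 and 62.8 on 0.2 kPa (2.29 ± 0.15). Cdt1, the licensing factor that geminin blocks, rose by 4.58 ± 0.26 and Cdc6, the ATPase it works with, by 3.21 ± 0.20. Among the helicase subunits, Mcm5, Mcm2 and Mcm6 rose by 4.48 ± 0.11, 4.07 ± 0.14 and 4.02 ± 0.19, and Mcm3, Mcm7 and Mcm4 by 3.13 ± 0.12, 2.61 ± 0.09 and 2.33 ± 0.11. The 3 subunits with the largest changes were those with the fewest reads in sham, at 4.94 to 9.12 CPM.

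All 5 genes of helicase activation rose (median 3.55), with Mcm10 the furthest of all 46. Mcm10, which helps start unwinding at the licensed origin, measured 0.335, 0.236 and 0.229 CPM in sham and 32.7, 31.4 and 28.8 on 0.2 kPa, with 27.3, 22.3 and 31.3 on 32 kPa. Every culture library stood far above every sham library (6.58 ± 0.19, adjusted p = 4.66e-10, limma). The GINS subunit gene Gins2 rose by 4.27 ± 0.12 and Cdc45 by 3.55 ± 0.12. Gins3 changed least in the group, from 2.29, 2.66 and 2.51 CPM to 12.3, 12.8 and 11.8 (2.10 ± 0.16).

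The 7 polymerase and primase genes all rose too, with a lower median of 1.75. Pole, the catalytic subunit of the leading-strand polymerase epsilon, rose most of these, from 4.07, 2.79 and 5.01 CPM to 45.1, 44.0 and 39.2 on 0.2 kPa (3.27 ± 0.20). Its partner Pole2 changed least of all called genes, from 8.69, 8.76 and 9.63 CPM to 19.0, 19.3 and 17.7 (0.85 ± 0.11, adjusted p = 5.21e-05, limma). The ranges of Pole2 did not overlap even so. Pola1, the catalytic subunit of polymerase alpha, rose by 1.27 ± 0.15, and the primase genes Prim1 and Prim2 by 2.48 ± 0.15 and 1.42 ± 0.12.

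Of the clamp and clamp loader genes 5 of 6 rose (median 2.03). The clamp gene Pcna was among the most abundant of the 46 in sham, at 57.8, 60.6 and 54.9 CPM, and reached 265.5, 257.8 and 246.6 on 0.2 kPa (1.95 ± 0.09). Rfc3, a small loader subunit, had the highest change of the group (2.40 ± 0.19) and Rfc2 the lowest of those called (1.68 ± 0.13). All 5 lagging-strand and single-strand binding genes rose (median 2.08), from Rpa3 (1.37 ± 0.21), the smallest subunit of the single-strand binding protein RPA, to the flap nuclease gene Fen1 (3.41 ± 0.13). Fen1 measured 5.17, 6.26 and 6.60 CPM in sham and 71.3, 72.1 and 75.7 on 0.2 kPa. Its ranges were wide apart.

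Nucleotide synthesis (5 of 5, median 3.59) held the gene with the largest gain in reads. Rrm2, the small subunit of ribonucleotide reductase that limits its activity through the cell cycle (chromosome 12, 24708254 to 24714146, GRCm38), went from 6.65, 5.89 and 7.04 CPM in sham to 387.6, 383.9 and 368.4 on 0.2 kPa and 326.9, 265.6 and 357.2 on 32 kPa. On 0.2 kPa the log2 change was 5.66 ± 0.12 (adjusted p = 5.98e-11, limma). The large subunit gene Rrm1 rose by 3.14 ± 0.23, thymidine kinase Tk1 by 4.97 ± 0.24 and thymidylate synthase Tyms by 3.59 ± 0.14. Dut, whose product removes dUTP, changed least in the group (2.29 ± 0.18).

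Among the 5 G1/S regulators 4 rose (median 3.17). E2f8, an atypical E2F that represses E2F targets, measured 0.159, 0.281 and 0.344 CPM in sham and 18.7, 20.2 and 19.2 on 0.2 kPa (5.97 ± 0.26). Ccne1 and Ccne2, the cyclins E that activate Cdk2, rose by 5.04 ± 0.28 and 3.17 ± 0.16, and the activator E2f1 by 1.86 ± 0.13. All 3 chromatin genes rose (median 5.07): the histone chaperone subunits Chaf1a (3.45 ± 0.17) and Chaf1b (5.07 ± 0.20), and Uhrf1 (5.15 ± 0.13), which brings DNA methylation maintenance to new DNA. Uhrf1 stood at 2.80, 3.03 and 3.88 CPM in sham and at 126.7, 126.8 and 141.3 on 0.2 kPa.

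Rfc1 and E2f2 were not called in either culture group. Rfc1, the large clamp loader subunit, had 53.1, 42.6 and 50.8 CPM in sham, 76.0, 72.3 and 64.0 on 0.2 kPa and 53.5, 56.7 and 86.2 on 32 kPa. All 3 libraries on 0.2 kPa lay above sham, with a log2 change of 0.34 ± 0.16 (adjusted p = 0.0774, limma), which passed the threshold when scaled by total reads (0.54, adjusted p = 0.0162). E2f2, an activator E2F like E2f1, had 1.27, 1.96 and 1.59 CPM in sham, 1.36, 1.52 and 1.17 on 0.2 kPa and 1.31, 1.22 and 1.41 on 32 kPa. Its ranges overlapped on 0.2 kPa, and the change was -0.43 ± 0.27 (adjusted p = 0.172, limma).

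Gel stiffness made no detected difference in these genes. Between 32 and 0.2 kPa none of the 46 was called in either direction, and of all tested genes 0% were called higher and 0% lower. None had an unadjusted p under 0.05, and neither edgeR nor DESeq2 on recovered reads called any of the 46. Log2 differences ran from -0.36 (Rrm1) to 0.31 (Pold1, catalytic subunit of polymerase delta), with a median of -0.03. Rrm1 had 367.8, 336.0 and 295.8 CPM on 0.2 kPa and 215.9, 174.7 and 395.4 on 32 kPa, so that replicate 3 on 32 kPa lay above all libraries on 0.2 kPa and the other 2 below. Without that replicate, Rrm1 was lower on 32 kPa by a log2 difference of -0.67 (adjusted p = 0.0234, limma), the only one of the 46 called, while 338 genes of the whole table were called higher and 511 lower.

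In the injured lung, the change was smaller and uneven. At day 14 after bleomycin 18 of the 46 genes rose against C57BL/6 sham and none fell, where 9.57% of the 21100 tested genes rose and 6.36% fell (limma, adjusted p under 0.05). The median log2 change of the 46 was 0.97, against 0.05 for all tested genes. In 27, every day 14 library lay above every sham library, which was not counted for all tested genes. The summed level was 610.8 to 689.3 CPM in sham and 935.6 to 1227 at day 14. Without the 4 libraries with few genes detected 30 genes were called higher, 16 of the 18 among them, where 14.4% of all tested genes rose. At day 14, 10 of 20 leukocyte markers rose with the replication genes (Ptprc, which encodes CD45, lay at 5.47 to 9.22 CPM in sham and 7.30 to 30.8 at day 14), and their part in the result was not tested. Red cell markers summed to 19.6 to 35.1 CPM in sham, 40.0 to 86.2 at day 14 and 3.55 to 21.6 at day 56, and endothelial markers to 187.5 to 285.3, 95.6 to 180.8 and 118.1 to 162.6. Epithelial markers summed to 135.6 to 339.6, 30.5 to 85.3 and 50.5 to 205 CPM in these groups, and mesenchymal markers to 31000 to 43530, 83550 to 103900 and 30710 to 45680 CPM, neither overlapping between sham and day 14.

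All 5 genes of nucleotide synthesis rose at day 14 (median 1.53). Rrm2 lay at 3.84, 8.61, 6.28 and 7.21 CPM in sham and 40.5, 57.9, 49.7 and 38.9 at day 14 (2.93 ± 0.27, SE, n = 4 per group, adjusted p = 1.41e-05, limma). Tk1, from 0.0975, 0.126, 0.700 and 0.992 CPM in sham, reached 14.7, 17.5, 15.2 and 13.3 (5.5 ± 0.87, adjusted p = 0.000723, limma), a change of 4.16 without the 4 libraries with few genes detected. In both genes the groups were far apart. Tyms (1.53 ± 0.18), Rrm1 (1.01 ± 0.16) and Dut (0.93 ± 0.26) rose less, and Dut was not called without C57BL/6 sham replicate 2 or 3 or day 14 replicate 2 or 3 (adjusted p = 0.0697 to 0.104, limma).

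Licensing was split at day 14, with 3 of 10 genes called (median 1.04). Mcm6 rose most of those called, from 43.9, 27.0, 21.7 and 37.3 CPM in sham to 69.9, 105.5, 68.2 and 67.2 (1.33 ± 0.23), followed by Mcm2 (1.27 ± 0.30) and Mcm3 (0.92 ± 0.15). Mcm4, the most abundant subunit in sham, lay at 48.2, 59.2, 56.1 and 55.6 CPM in sham and 61.6, 58.1, 56.8 and 42.2 at day 14. The ranges of Mcm4 overlapped throughout (0.03 ± 0.16, adjusted p = 0.934, limma). Mcm5, on the other hand, went from 2.71, 8.76, 6.85 and 7.52 CPM to 27.2, 40.6, 30.5 and 25.4 without overlap, yet was not called (2.40 ± 1.36, adjusted p = 0.279, limma). The fit uses 1 spread for all 3 groups, and day 56 replicate 3 had 0 reads of Mcm5. Without the 4 libraries with few genes detected, Mcm5 rose by 2.10 (adjusted p = 0.000616, limma) and 9 of the 10 licensing genes were called, all but Mcm4.

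Helicase activation had 3 of 5 genes called (median 1.17). Gins2 rose from 1.15, 1.5, 1.19 and 1.16 CPM to 9.68, 11.3, 8.85 and 9.83 (3.01 ± 0.44), Mcm10 by 3.60 ± 0.96 and Cdc45 by 1.17 ± 0.33. All 4 day 14 libraries of Gins2 exceeded all sham libraries. Without C57BL/6 sham replicate 1 or day 14 replicate 1 or 3, Mcm10 missed the threshold (adjusted p = 0.0504 to 0.0614, limma), and Cdc45 missed it without sham replicate 2 or 4 or day 14 replicate 1, 2 or 3 (adjusted p = 0.0563 to 0.0913, limma). Polymerases and primase had 1 of 7 genes called and a median of 0.04. That gene, Pole, had 0, 0, 1.43 and 1.52 CPM in sham and 5.61, 7.84, 7.34 and 9.33 at day 14 (5.23 ± 1.59, adjusted p = 0.0374, limma). Without the 4 libraries with few genes detected, the 2 sham libraries at 0 among them, its change was 2.33 (adjusted p = 0.0016, limma). With them it was not called by edgeR (adjusted p = 0.13), by DESeq2 (adjusted p = 0.229) or by limma without sham replicate 1 or 2 or any 1 of the day 14 replicates (adjusted p = 0.0742 to 0.119). Pola1, Pola2, Prim1 and Pold1 had log2 changes of 0.01 ± 0.37, -0.25 ± 0.18, -0.24 ± 0.35 and 0.04 ± 0.28, none called.

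In the clamp and loader group 2 of 6 genes rose, Rfc5 (1.06 ± 0.24) and Rfc3 (0.93 ± 0.27). Rfc3 missed the threshold without C57BL/6 sham replicate 1 or 2 or day 14 replicate 1, 2 or 3 (adjusted p = 0.0574 to 0.116, limma). Pcna overlapped between sham (43.8, 31.8, 33.4 and 40.6 CPM) and day 14 (45.1, 63.1, 47.8 and 43.1 CPM) and was not called (0.45 ± 0.18, adjusted p = 0.118, limma). Of the lagging-strand and single-strand binding genes 2 of 5 rose, Fen1 (1.47 ± 0.24) and the ligase gene Lig1 (0.88 ± 0.22). Lig1 was not called without sham replicate 4 (adjusted p = 0.052, limma).

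Of the G1/S regulators E2f8 and Ccne2 rose at day 14. E2f8 had 0, 0, 0.182 and 0.0242 CPM in sham and 2.90, 5.27, 4.87 and 4 at day 14 (6.33 ± 1.08, adjusted p = 0.00126, limma), the largest fitted change of the 46, and 5.36 without the 4 libraries with few genes detected. Ccne2 rose by 1.37 ± 0.30. E2f1 overlapped between sham (9.56 to 19.1 CPM) and day 14 (9.82 to 15.8 CPM), with a change of -0.09 ± 0.31. Of the chromatin genes none was called: Uhrf1 lay at 1.87, 4.97, 2.15 and 2.03 CPM in sham and 24.0, 34.5, 29.0 and 17.0 at day 14 (3.35 ± 1.20, adjusted p = 0.0743, limma). Its ranges did not overlap, and without the 4 libraries with few genes detected it was called (3.60, adjusted p = 0.000299, limma), as was Chaf1b (2.81, adjusted p = 0.00112).

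By day 56 the genes were back near sham. None of the 46 was called against sham in either direction, where 0% of all tested genes were higher and 0.00474% lower, and 1 had an unadjusted p under 0.05 (limma). Both edgeR and DESeq2 called none, nor did limma with a term for sex. Xist reads lay above Ddx3y reads in every day 56 library but in sham only in replicate 2, so sex and time are partly tied in this comparison. The median log2 change was -0.11 and the summed level 627.1 to 720.4 CPM, overlapping the sham range. A miss of the threshold does not show that levels were equal: SEs were 0.15 (Rfc1) to 1.59 (Pole). Against day 14, 19 of the 46 were lower at day 56 and none higher, where 8.49% of all tested genes were lower and 5.71% higher. In 25, every day 56 library lay below every day 14 library, again with no count for all tested genes. On the values as deposited, without rescaling, 3036 genes of the table were lower and 778 higher, against 1792 and 1205 after rescaling. Without the 4 libraries with few genes detected 33 of the 46 were lower, all 19 among them, where 13.4% of all tested genes were lower. Leukocyte markers also fell from day 14 to day 56, 7 of 20, and their part in the result was not tested.

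The 19 genes that fell were 5 of 5 in nucleotide synthesis, 4 of 10 in licensing (Cdc6, Mcm2, Mcm3 and Mcm6), 3 of 5 in helicase activation (Mcm10, Cdc45 and Gins2), 2 each among lagging-strand genes (Lig1 and Fen1), G1/S regulators (Ccne2 and E2f8) and chromatin genes (Chaf1b and Uhrf1), and Pole. None of the 6 clamp and loader genes was among them, but without the 4 libraries with few genes detected 5 of the 6 were called lower, all but Rfc1. Rrm2 returned to 5.63, 4.34, 4.69 and 7.49 CPM (-3.21 ± 0.27, adjusted p = 1.21e-05, limma) and Tk1 to 0.917, 0.0700, 1.47 and 1.00 CPM (-4.74 ± 0.87, adjusted p = 0.00243, limma). All 4 Rrm2 values lay within the sham range, the Tk1 values overlapped it, and both genes lay under all day 14 values. Day 56 replicate 3, with 40283444 reads, had 0 reads of Mcm5, Mcm10, Pole, E2f2, E2f8 and Chaf1b, which by counting error alone allows up to 3 reads, or 0.0745 CPM. Pole was not called lower without day 56 replicate 2 or 3 or any 1 of the day 14 replicates (adjusted p = 0.0713 to 0.112, limma), Mcm10 without day 14 replicate 3 (adjusted p = 0.0546) and Dut without day 14 replicate 2 (adjusted p = 0.0548).

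Culture and injury were set side by side in 1 fit of the recovered reads of both tables. The change on 0.2 kPa exceeded the change at day 14 in 38 of the 46 genes and was smaller in none, where 16.7% of the 17718 tested genes had a greater and 22.7% a smaller change in culture (edgeR, adjusted p under 0.05). The median difference was 1.98 on the log2 scale, against -0.20 for all tested genes. The edgeR test gives no standard error for it. Strain, reporter, sort, culture and time all differ between the tables and cannot be told apart. Differences were largest for Cdt1 (3.53, adjusted p = 3.97e-05), Mcm10 (3.28, adjusted p = 0.00425) and Orc1 (3.25, adjusted p = 0.000231), all by edgeR. Mcm4, which was not called at day 14, differed by 2.33 (edgeR, adjusted p = 6.13e-08). Mcm5, Pole, Pole2, Rfc1, Rpa3, Tk1, E2f2 and E2f8 were not called. Tk1 had log2 changes of 4.97 in culture and 5.5 at day 14 and a difference of -0.11 (edgeR, adjusted p = 0.939), and E2f8 had 5.97 and 6.33 and a difference of -0.43 (adjusted p = 0.815). Across the 46 genes, the change on 0.2 kPa and the change at day 14 had a Spearman correlation of 0.79 and a Pearson correlation of 0.69, a description across genes, which are not independent replicates.

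**Figure D2:**
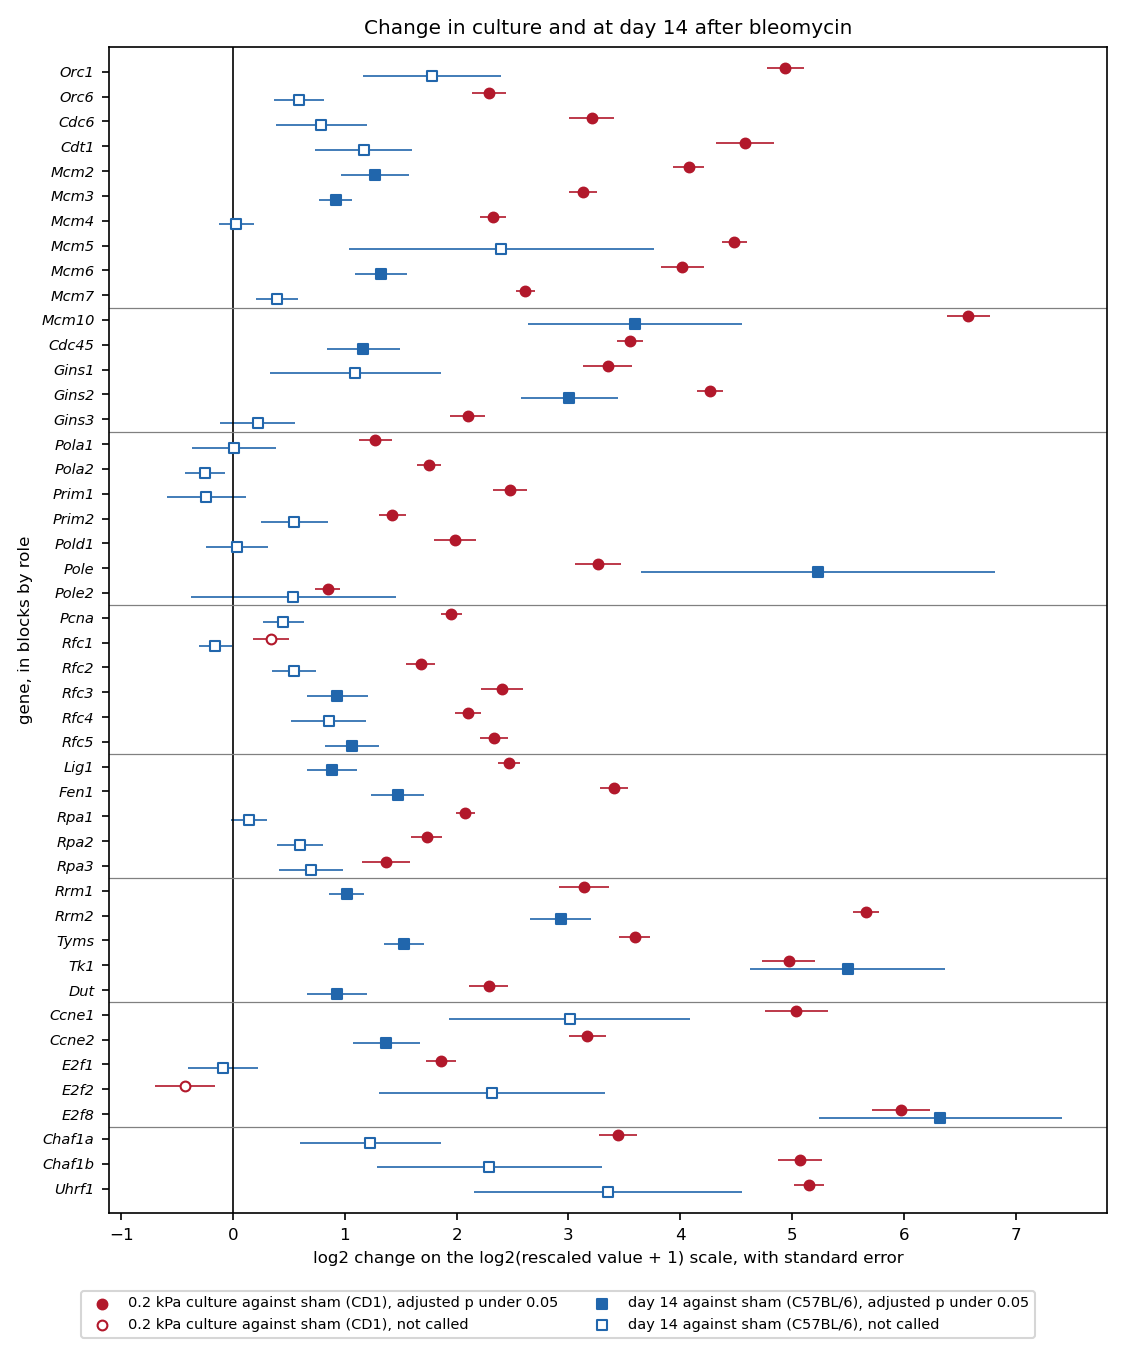
Log2 change with its standard error for each of the 46 genes on 0.2 kPa against CD1 sham (red circles) and at day 14 against C57BL/6 sham (blue squares), filled where the adjusted p was under 0.05. Red lies to the right of blue in most rows, with Pole, E2f2, E2f8 and Tk1 as exceptions, of which only E2f2 remains one without the 4 libraries with few genes detected (day 14 changes of 2.33, 2.31, 5.36 and 4.16), and blue bars are longer in most rows.

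Levels per transcript length showed how evenly the subunits of a complex were represented. The MCM2-7 helicase contains its 6 subunits in equal number. In RPKM (CPM per kilobase of the longest curated RefSeq transcript), group means of the subunits in CD1 sham ran from 1.66 for Mcm6 to 9.27 for Mcm4, a ratio of 5.58. On 0.2 kPa they ran from 30.7 for Mcm6 to 56.4 for Mcm7, a ratio of 1.84, and on 32 kPa the ratio was 2.07. Taken library by library, the ratio of the highest to the lowest subunit was 4.39 to 6.94 in fresh CD1 libraries, 1.76 to 2.02 on 0.2 kPa and 1.64 to 2.59 on 32 kPa, so no culture library reached a sham library. In C57BL/6 the ratio was 19.5, 6.70, 7.85 and 7.09 in sham, 2.01 to 2.42 at day 14 and 7.30 to 9.43 at day 56, leaving out day 56 replicate 3 with its 0 reads of Mcm5. The 19.5 is that of sham replicate 1, a library with few genes detected and with Mcm5 low at 2.71 CPM. Again no day 14 library overlapped with the others. The pattern was noticed in these data for this complex and was not tested.

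**Figure D3:**
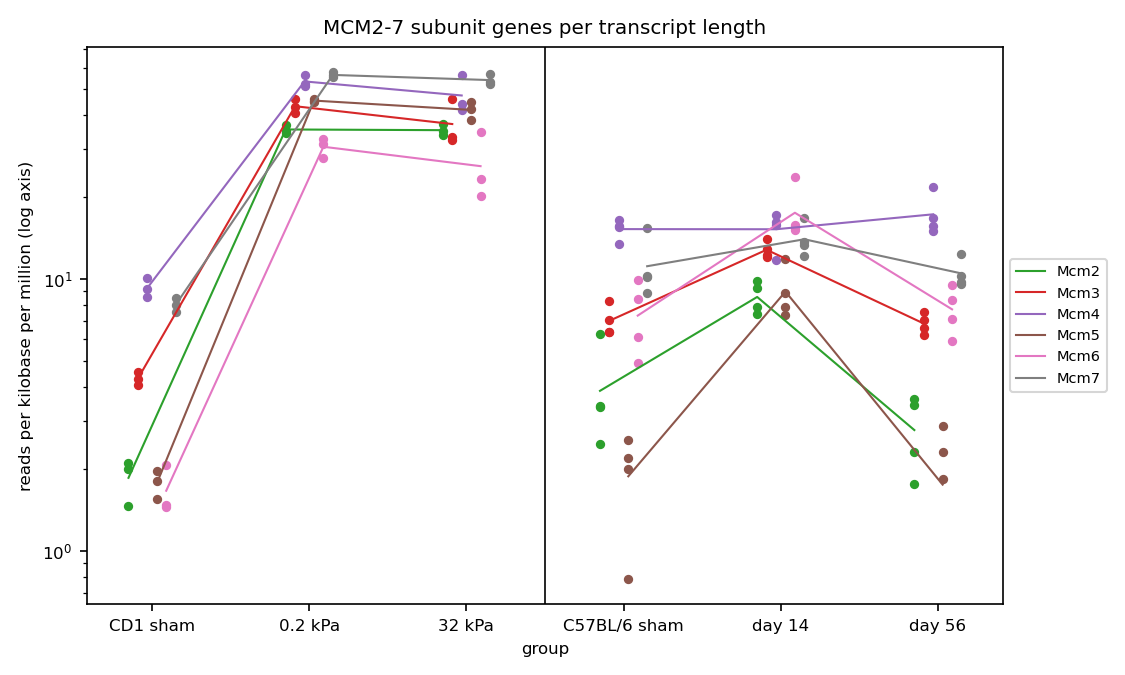
RPKM of the 6 MCM2-7 subunit genes on a log axis, 1 point per library and lines through the group means (left, CD1; right, C57BL/6; day 56 replicate 3 has no Mcm5 point, at 0 reads). The 6 genes draw together on both gels and at day 14 and spread out in both sham groups and at day 56, with Mcm4 near the same level in the 3 C57BL/6 groups.

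Ribonucleotide reductase, built from Rrm1 and Rrm2 products, changed its order. In CD1 sham Rrm1 had a mean of 8.22 RPKM and Rrm2 of 2.99, while on 0.2 kPa Rrm2 reached 174.3 and Rrm1 83.4. In C57BL/6 sham the means were 13.4 for Rrm1 and 2.97 for Rrm2, at day 14 they were 26.3 and 21.4, and at day 56 they were 13.7 and 2.54. Of the RPA subunits Rpa1 had the highest mean in all 6 groups. These levels are descriptions, with no test between genes.

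Other genes of the pathway were counted by lists of related genes, to be read against the 31.9% of all tested genes that rose and 39.2% that fell on 0.2 kPa, and the 9.57% and 6.36% at day 14. Of 31 further replication genes 28 rose on 0.2 kPa and 1 fell, and at day 14 4 rose, a share close to that of all tested genes, and none fell. On 0.2 kPa the largest changes were those of Dbf4, the activator of Cdc7 kinase (5.5 ± 0.16), Ticrr, needed for helicase activation (5.34 ± 0.28), the checkpoint mediator Clspn (5.14 ± 0.22) and geminin, Gmnn (4.45 ± 0.18), while Mcm9, an MCM paralog of DNA repair, fell (-0.99 ± 0.35, adjusted p = 0.025, limma). At day 14 Ticrr (4.5 ± 0.91), Gmnn (2.76 ± 0.55), Chtf18 of an alternative clamp loader (1.92 ± 0.44) and the GINS subunit Gins4 (0.54 ± 0.15) rose. Of 12 chromatin replication genes 12 rose on 0.2 kPa and 3 at day 14, among them the histone chaperone Asf1b (5.77 ± 0.20 and 5.24 ± 0.98). None of the 31 or the 12 was called at day 56 against sham.

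Upstream of replication, 14 of 18 G1 cyclins, kinases and inhibitors rose on 0.2 kPa and 2 fell, and at day 14 7 rose and 1 fell. Cyclin D1, Ccnd1, which starts the inactivation of the retinoblastoma protein, went from 12 to 13.8 CPM in CD1 sham to 332.0 to 353.5 on 0.2 kPa (4.57 ± 0.09) and from 10.1 to 19.2 in C57BL/6 sham to 34.5 to 54.7 at day 14 (1.60 ± 0.22). Neither pair of ranges overlapped. The inhibitors went in different directions. Cdkn1c (p57) fell in both settings, by 4.64 ± 0.33 on 0.2 kPa and by 2.30 ± 0.49 at day 14, Cdkn1b (p27) fell by 1.30 ± 0.19 on 0.2 kPa, and Cdkn1a (p21) rose by 0.92 ± 0.11 and 0.71 ± 0.20. Cdkn2a rose by 5.28 ± 0.45 on 0.2 kPa but remained low, at 3.17 to 3.76 CPM, and Cdkn2b, its neighbour in function, rose by 2.27 ± 0.26 and, at day 14, by 2.30 ± 0.34.

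Among 18 pocket protein, E2F and DREAM genes 12 rose on 0.2 kPa and 4 fell, fewer falls than the 39.2% of all tested genes, and at day 14 5 rose and 2 fell. E2f7, an atypical repressor like E2f8, rose by 5.97 ± 0.20 on 0.2 kPa and 5.84 ± 1.08 at day 14, and the late cell cycle activators Mybl2 (5.03 ± 0.16 and 5.98 ± 1.27) and Foxm1 (4.53 ± 0.15 and 4.79 ± 1.44) rose in both. The SEs of E2f7, Mybl2 and Foxm1 were far wider at day 14 than on 0.2 kPa. The pocket protein gene Rbl2, which encodes p130 of the resting-cell DREAM complex, fell in both, from 95.8 to 110.7 CPM in CD1 sham to 12.8 to 13.1 on 0.2 kPa (-3.17 ± 0.14) and from 128.2 to 151.6 in C57BL/6 sham to 88.4 to 102.7 at day 14 (-0.48 ± 0.14, adjusted p = 0.0349, limma). Rb1 fell on 0.2 kPa (-0.82 ± 0.12) and was not called at day 14 (-0.39 ± 0.39).

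Mitosis genes were counted as another part of the cell cycle. All 20 rose on 0.2 kPa, with a median of 5.72, and at day 14 19 rose and Pttg1 fell (-0.91 ± 0.26), with a median of 5.62. Mki67, which marks cycling cells, went from 2.84 to 6.58 CPM in CD1 sham to 150.5 to 180.3 on 0.2 kPa, and from 0 to 0.804 CPM in C57BL/6 sham to 28.0 to 38.1 at day 14. Cdk1, the mitotic kinase, went from 0.652 to 1.17 CPM to 185.1 to 198.8 in CD1 and from 0 to 0.726 CPM to 23.5 to 28.9 in C57BL/6. In C57BL/6 sham Mki67 and Cdk1 reached 0 CPM, where changes on log2(value + 1) can be overstated. The medians of 5.72 and 5.62 therefore do not show equal changes in culture and at day 14. No fit of the 20 genes without the 4 libraries with few genes detected is given here. For the change on 0.2 kPa against the change at day 14, 6 of the 20 mitosis genes were called greater in culture, with a median difference of 1.14 (edgeR). Of the 46 replication genes 38 were, with a median of 1.98, and of all tested genes 16.7%, with a median of -0.20. Such counts also depend on the spread of each gene, which was not compared between the lists. Summed over the 20 mitosis genes, levels in C57BL/6 were 71.9 to 102.4 CPM in sham, 433.1 to 577.1 at day 14 and 68.9 to 122.3 at day 56, so that day 14 stood clear of both. At day 56 against day 14, 19 of the 20 were lower.

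**Figure D4:**
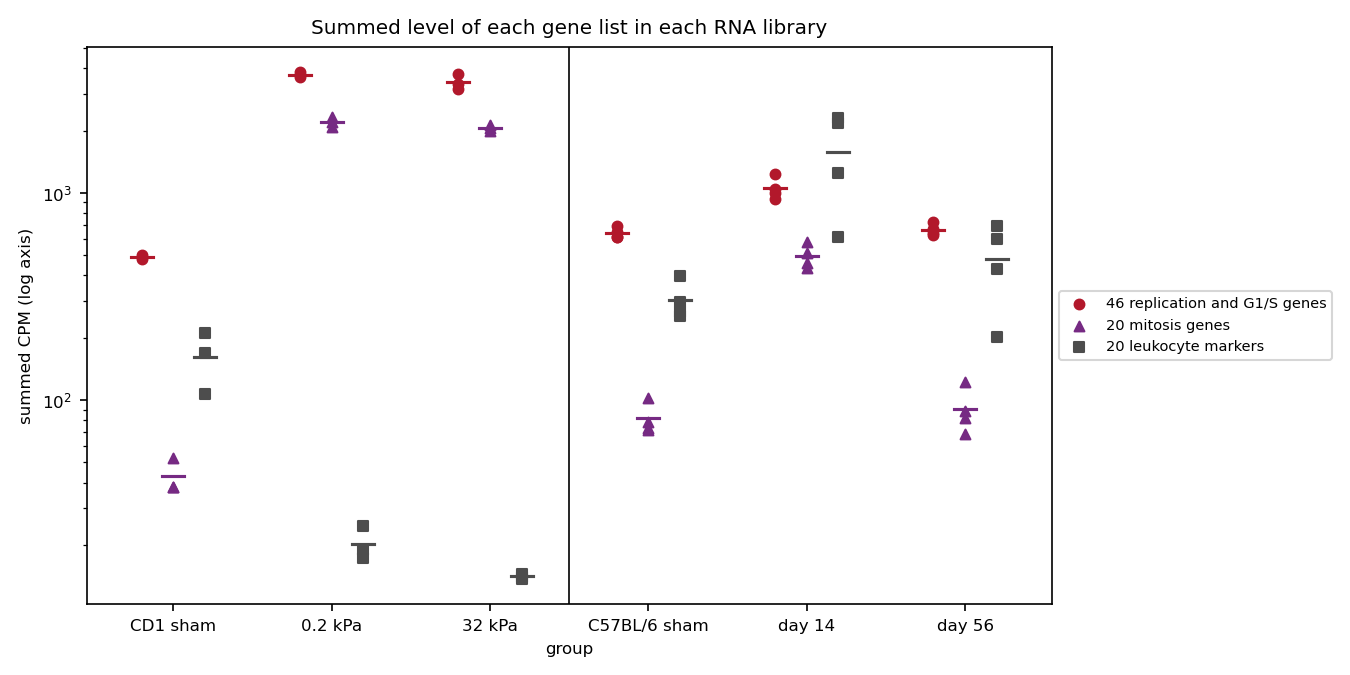
Summed CPM of the 46 replication and G1/S genes (circles), 20 mitosis genes (triangles) and 20 leukocyte markers (squares) in each RNA library on a log axis, with bars for group means. Circles and triangles rise on both gels and at day 14, each time by less for circles on the log axis, while squares fall on the gels and rise at day 14.

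Chromatin at the promoters of these genes was read from the authors' deposited tables of ATAC regions, which list for each pair of groups regions with an FDR up to 0.05, each with its own log2 fold (mm10 coordinates). The smallest absolute log2 fold is 0.31 in the 32 kPa list and 1 in the other lists, so numbers of regions cannot be compared between it and them. Against sham, the authors' deposited table for 0.2 kPa held less accessible regions over the promoter windows of 37 of the 39 genes with a window, all but Prim1 and Tk1, and more accessible ones over none. Promoter windows of 71.2% of the tested genes were also less accessible there, as were 41750 of the 47475 regions of that list, so less accessible was the common direction. The median log2 fold of the 41 regions in the authors' deposited table was -2.71, from -1.41 at Gins3 to -3.54 at Rpa3. For 32 kPa the authors' deposited table gave the same 37 of 39 genes, against 71% of tested genes, with a median of -2.14 over 42 regions. At the Mcm5 promoter printed above, the region chr8:75109256-75109753 had a log2 fold of -3.03 on 0.2 kPa and -2.46 on 32 kPa in the authors' deposited tables, while Mcm5 RNA rose by 4.48. At the Rrm2 promoter, chr12:24707964-24708544 on 0.2 kPa, it was -1.93 in the authors' deposited table. The authors' scaling of ATAC libraries against each other was not given in the sources used here; a fold shared by most promoters depends on it.

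**Figure D5:**
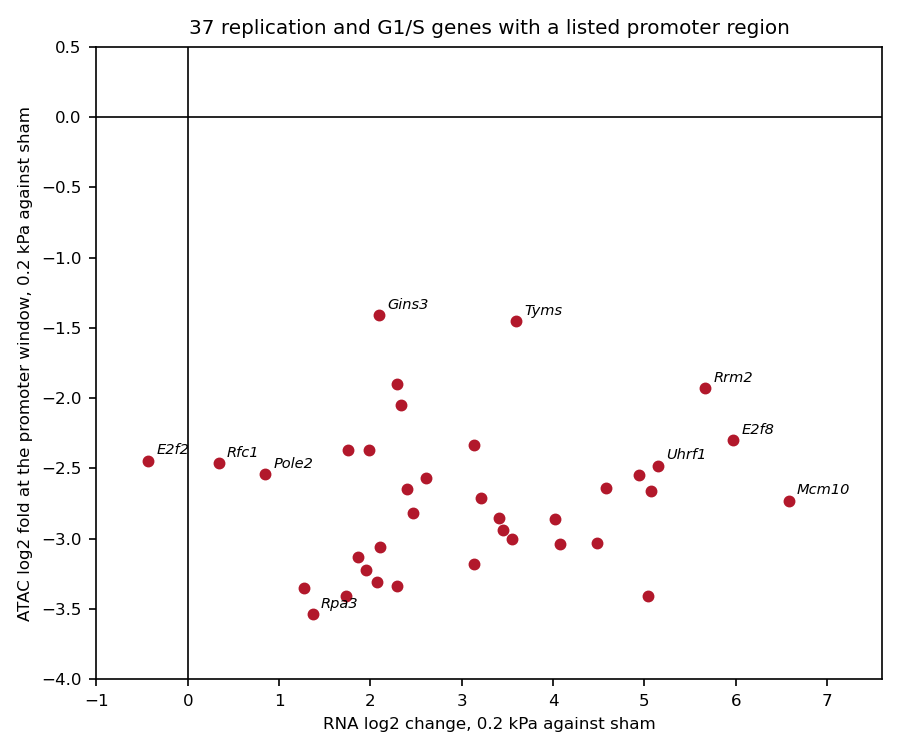
RNA log2 change (horizontal) and the mean log2 fold of ATAC regions over the promoter window from the authors' deposited table (vertical), 0.2 kPa against sham, for the 37 genes with such a region. All 37 points lie below 0 on the ATAC axis and 36 lie right of 0 on the RNA axis, with E2f2 as the exception.

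Between 32 and 0.2 kPa, the authors' deposited table listed the promoter windows of 2 of the 39 genes, both more accessible on 32 kPa, Rfc3 (1.12, chr5:151651007-151651407) and Tyms (1.05, chr5:30073523-30073640), against 1.05% of tested genes. RNA of Rfc3 and Tyms differed between the gels by -0.10 ± 0.19 and 0.08 ± 0.14, neither called. After bleomycin no promoter window of the 39 genes overlapped a listed region. In the authors' deposited table for day 14, 1.94% of tested genes had a more accessible window, and in that for day 56 against day 14, 1.92% had a less accessible one.

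Rfc2, which has no window in the RefSeq table, had a region annotated as promoter, chr5:134582354-134582473, that was more accessible at day 56 than at day 14 (log2 fold 1.08, FDR 0.0098) in the authors' deposited table. The other regions listed near these genes after bleomycin lay further from starts. By the nearest start, the authors' deposited table for day 14 assigned 26 regions to 11 of the 46 genes, 19 more and 7 less accessible, where 67.9% of all 25518 regions were more accessible. The authors' deposited table for day 56 against day 14 assigned 27 to 12 genes, 18 of them less accessible, where 15778 of all 21413 regions were. Both directions were thus near those of the whole lists. In both, Dut was assigned more regions than any other gene, of either direction and up to 75981 and 83168 bases from its start. An intergenic region 6638 bases upstream of the E2f8 start, chr7:48887967-48888502, had a log2 fold of 4.23 at day 14 and -3.11 at day 56 against day 14, and parts of it had 3.41 and 3.5 on 32 kPa, in the authors' deposited tables. An intergenic region 30120 bases downstream of the Ccne1 start, chr7:38077191-38077550, had 3.16 at day 14 and -2.81 at day 56 against day 14, and overlapping regions had 2.42 on 0.2 kPa and 3.12 on 32 kPa, in the authors' deposited tables. An intronic region, chr1:33657625-33657954, lay in intron 5 of Prim2 and had 3.78 and -1.83 in the authors' deposited tables for day 14 and for day 56 against day 14. Part of it, chr1:33657699-33657835, was still more accessible at day 56 than in sham, by 1.83, in the authors' deposited table. RNA of E2f8 rose at day 14 and fell by day 56, while Ccne1 (3.01 ± 1.08 and -2.24 ± 1.08) and Prim2 (0.55 ± 0.30 and -0.16 ± 0.30) were called in neither comparison. Without the 4 libraries with few genes detected Ccne1 was called in both (1.56, adjusted p = 0.0125, and -2.58, adjusted p = 0.00187, limma) and Prim2 in neither. A region 13250 bases upstream of the Lig1 start, chr7:13263877-13264250, had 3.25 at day 14 and -3.14 at day 56 against day 14 in the authors' deposited tables, but sits in an intron of another transcript. Nearest start is the authors' assignment and does not show which gene a region acts on.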

How the data were processed

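RNA and ATAC libraries were measured in the groups given above. The submitters' processing notes name HISAT2, featureCounts of Subread, Picard and DESeq2, and for ATAC-seq Bowtie2, SAMtools, MACS2, bedtools, DiffBind and HOMER, with build mm10. Versions, parameters, strand setting and any shift of ATAC reads were not given in the sources used here. For RNA, the authors deposited 1 normalized signal value for each gene in each library. Small values were whole multiples of 1 step per column, so reads were recovered: 100% of values came out whole within 0.05 reads. ATAC lists held, per the file headers, log2 concentrations, a log2 fold and an FDR (an adjusted p-value) per region, all the authors' own.

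The 855 CD1 rows without a symbol (2.13 to 4.77% of reads) were left out. Each library's signal was divided by a median-of-ratios factor. Genes with a mean of at least 1 were tested on log2(value + 1), which understates changes of genes with few reads and, where some libraries of a group are at 0, can overstate them, with limma-trend (limma 3.58.1, R 4.3.3), 1 fit per table and a group term, and Benjamini-Hochberg adjustment over all tested genes at 0.05. The difference of changes used the quasi-likelihood test of edgeR 4.0.16 on recovered reads of both tables. As an alternative, edgeR on recovered reads called 5750 genes higher and 7056 lower on 0.2 kPa, and 1581 and 1418 at day 14. DESeq2 1.42.0 was another alternative. Rescaling set the median log2 change of all genes on 0.2 kPa at -0.22, against -0.03 when scaled by total reads, and at day 56 against sham at -0.02, against -0.22 as deposited. Scripts were tested on simulated data. CPM are recovered reads per 1000000 reads of a library. RPKM uses the longest curated RefSeq transcript. RefSeq windows, gene positions and the genome were of GRCm38.p6, and mm10 is the same assembly. Members and lists were chosen with earlier results of these data known, the leukocyte, epithelial, endothelial, red cell and mesenchymal markers included. All 46 members could be named: in each role, those with the largest and smallest called change are given in full, and of other lists up to 4 called genes with the largest change, those called against the direction of their list, and a few fixed cell cycle genes. Replicate numbers were not used to pair libraries in the main fits. Correlations of same-numbered deviations were -0.16 to 0.07 in CD1 and -0.16 to 0.12 in C57BL/6. With so few libraries they cannot show whether a number marks a shared animal or day. A gene set to 0 reads is given as 0, with no fold against a group at 0.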

Additional observations from a re-analysis of the deposited data

Results flagged for a closer look

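In groups of 4 libraries, a library was marked where its gap to the nearest of the others, divided by the range of the group, exceeded Dixon's critical value. Of 138 groups of libraries (46 genes in 3 C57BL/6 groups) 15 were marked, where chance marks about 5%. Day 56 replicate 3 accounted for 7 of the 15. It was low for Cdc6 (1.24 CPM), Mcm5 (0 CPM), Gins1 (0.124 CPM), Pole2 (0.0993 CPM), E2f2 (0 CPM) and Chaf1b (0 CPM), and high for Cdt1 (13.0 CPM, others 3.55 to 4.34). C57BL/6 sham replicate 1 was low for Mcm5 (2.71 CPM) and Ccne1 (0 CPM), and sham replicate 2 for Rpa1 (59.2 CPM, others 71.8 to 78.1). At day 14, replicate 1 was low for Orc1 (1.51 CPM, others 3.52 to 4.07), and replicate 4 for Mcm4 (42.2 CPM) and Prim1 (5.78 CPM). Replicate 2 was high for Mcm6 (105.5 CPM, others 67.2 to 69.9) and replicate 3 for Rfc5 (29.2 CPM, others 22.7 to 23.2). The change from sham differed between day 14 and day 56 in 19 of the 46 genes, by the limma test of day 56 against day 14, and in all 19 it was the higher level at day 14.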

How the results depend on the processing

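The 44 genes called higher on either gel ranged from 44 to 45 over all settings tried. For the other counts, leaving out the 4 libraries with few genes detected gave 30 higher at day 14 and 33 lower at day 56 against day 14. Leaving out 1 library at a time gave 13 to 20 higher at day 14, 15 to 22 lower at day 56 against day 14, 35 to 38 greater (40 when scaled by total reads) and 0 to 1 smaller in culture than at day 14, and 0 to 1 lower on 32 than on 0.2 kPa. DESeq2 called 1 gene, E2f2, smaller in culture than at day 14. With a replicate block 17 genes were higher at day 14 and 19 lower at day 56 against day 14, and on either gel 44 were higher. No gene reversed under any setting in a comparison where it was called.

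ATAC regions at the 46 genes numbered 8, 17, 7, 26, 2 and 27 in the lists for 0.2 kPa against sham, 32 kPa against sham, 32 against 0.2 kPa, day 14 against sham, day 56 against sham and day 56 against day 14. Within 1 kb of a start they numbered 2, 2, 2, 0, 0 and 1. Overlapping a promoter window, an alternative added after seeing the data, they numbered 41, 42, 2, 0, 0 and 0. At an absolute log2 fold of at least 2 they numbered 6, 9, 0, 11, 0 and 9. The lists for 0.2 kPa against sham and 32 kPa against sham carried no gene annotation. A region there was counted at a gene only where it overlapped a region annotated to that gene in another list. The 8 and 17 regions, the 2 and 2 within 1 kb and the 6 and 9 at larger fold therefore miss regions near these genes. The 41 and 42 over promoter windows did not depend on this annotation. For the other lists, the cause of these moves was not tested, other than that each setting keeps other regions. Sex of the animals, read from Xist and Ddx3y, was mixed in C57BL/6 sham and day 14 and not at day 56. In sham only replicate 2 and at day 14 only replicates 1 and 2 had Xist above Ddx3y, while every day 56 library did. With a term for sex 17 genes were higher at day 14 and 18 lower at day 56 against day 14. Genes under about 1 CPM rest on few reads in the shallowest libraries.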

Other observations

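Of 20 further nucleotide supply genes 16 rose and 4 fell on 0.2 kPa (limma, adjusted p under 0.05), and at day 14 4 rose and 2 fell, where 31.9% of all tested genes rose and 39.2% fell on 0.2 kPa and 9.57% and 6.36% at day 14. The share that fell was thus under that of all tested genes on 0.2 kPa and near it at day 14. Those that rose on 0.2 kPa included the deaminase Dctd (4.87 ± 0.19) and the folate enzymes Mthfd2 (3.78 ± 0.10) and Shmt1 (3.48 ± 0.13). The 4 that fell on 0.2 kPa are described after their values were seen, with no test of them as a group. Tk2 and Dguok encode the mitochondrial deoxynucleoside kinases, Rrm2b the ribonucleotide reductase subunit used outside S phase, and Samhd1 a hydrolase that breaks down deoxynucleotides. Tk2, the mitochondrial counterpart of Tk1, went from 21.8 to 26.9 CPM in CD1 sham to 10.7 to 13.1 on 0.2 kPa (-1.21 ± 0.14, adjusted p = 2.16e-05, limma) and from 45.8 to 58.7 CPM in C57BL/6 sham to 25.5 to 31.0 at day 14 (-0.81 ± 0.14, adjusted p = 0.00148, limma), and returned to 44.5 to 59.5 at day 56. Dguok fell in both as well (-1.65 ± 0.19 and -0.64 ± 0.18) and was higher at day 56 than at day 14 (0.67 ± 0.18, adjusted p = 0.0259, limma). Rrm2b fell on 0.2 kPa (-1.27 ± 0.18) and was not called at day 14 (-0.61 ± 0.36, adjusted p = 0.304, limma). The same 4 fell on 32 kPa, Samhd1 by the least (-0.30 ± 0.10). These ranges of Tk2 in CD1 sham and on 0.2 kPa do not overlap, nor do those of C57BL/6 sham and day 14, in the direction opposite to Tk1.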
